A study of Mus musculus with 2 samples.

Results

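The 9 genes described here, out of 32285 counted, regulate or mark the fate of activated B cells, as germinal-centre cells or plasma cells. They were taken by symbol: *Bcl6*, *Mef2b*, *Rgs13* and *S1pr2* are known for the germinal centre, *Mzb1*, *Xbp1*, *Prdm1* and *Irf4* for the plasma cell, and *Pax5* for B cell identity. Palatal gingiva of female wild type C57BL/6 mice (C57Bl6/J in the protocol), 8 to 12 weeks old, was dissociated 4 days after a 1 h topical application under an oral appliance of 3 µl of ligand at 1 µg/ml. The ligand was CpG ODN, a synthetic DNA that activates TLR9, in 1 group and *P. gingivalis* LPS, a ligand of TLR2/4, in the other, and no untreated library was analysed here. The cells of 4 mice per ligand, in equal shares, went into 1 droplet-based 3′ single-cell RNA library, in which each captured molecule carries a unique molecular identifier (UMI). With 1 library per ligand there is no replicate and no test, and every 95% interval given below covers counting error alone.

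A germinal centre is a site within lymphoid tissue where B cells divide, mutate their antibody genes and exchange the IgM heavy chain for another class. The repressor BCL6 holds B cells in this state, and IRF4 and the repressor BLIMP-1, encoded by *Prdm1*, move them out of it toward antibody secretion, where XBP1 enlarges the endoplasmic reticulum. Plasma cells switch off *Pax5*, the transcription factor that maintains the B cell programme.

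The CpG ODN library kept 4888 of 6219 barcodes, and the LPS library 1277 of 2016, when barcodes were required to have 800 or more detected genes. A cell was put in the B cell gate when *Cd79a*, *Cd79b*, *Ms4a1* and *Jchain* (the antigen receptor chains, CD20 and the joining chain of antibodies) together had at least 2 UMIs. The gate held 563 cells after CpG ODN, 11.5% of the kept cells (10.6 to 12.5%), and 72 after LPS, 5.64% (4.44 to 7.05%). Gated cells had a median of 3405 and 3264.5 UMIs per cell, against 11900 and 24075 in the other cells of the same library. Of 4 B cell markers outside the gate (*Cd22*, *Cd37*, *Vpreb3* and *Fcrla*), at least 2 UMIs together were found in 488 of the 563 and 71 of the 72 gated cells. Of 10 T cell genes, 7 (CpG ODN) and 8 (LPS) were at 0 in the gated cells, *Cd3d*, *Cd3e*, *Cd3g*, *Cd4*, *Cd8a* and *Icos* among them. The list summed to 44.5 and 95.5 CPM (counts per 1000000 UMIs) there against 9.62 and 8.57 CPM in the other cells. All of the gated sum came from *Trac* and *Cxcr5*, with *Pdcd1* as well after CpG ODN. Of 6 genes listed for plasmacytoid dendritic cells, *Siglech* was at 0 in the gated cells of both libraries, while the list summed to 1570.3 and 1337 CPM there and 3147 and 3022.5 CPM in the other cells. The part of such cells in the results was not tested. Keratin genes held more than 1% of the UMIs in 50 gated CpG ODN cells and in 0 gated LPS cells. These 50 cells had a median of 19210.5 UMIs and 29.6% of all gated CpG ODN UMIs, and doublets were neither called nor removed. The libraries shared 5 barcodes, of which 1 was among the kept cells and 0 among the gated cells.

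For the germinal-centre members, the 250 bases before the RefSeq start (GRCm38.p6) are shown 5′ to 3′, in capitals where a searched motif matched. The windows lie at chr1:144177373-144177622 (minus strand) for *Rgs13*, chr8:70152511-70152760 (plus strand) for *Mef2b*, chr9:20976794-20977043 (minus strand) for *S1pr2*, and chr16:23988853-23989102 (minus strand) for *Bcl6*. Those of *Rgs13* and *Bcl6* end at the base before the gene in the GENCODE annotation of GRCm38 and that of *S1pr2* lies just upstream of it, whereas that of *Mef2b* is inside the GENCODE gene, which starts at 70139711.

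Rgs13: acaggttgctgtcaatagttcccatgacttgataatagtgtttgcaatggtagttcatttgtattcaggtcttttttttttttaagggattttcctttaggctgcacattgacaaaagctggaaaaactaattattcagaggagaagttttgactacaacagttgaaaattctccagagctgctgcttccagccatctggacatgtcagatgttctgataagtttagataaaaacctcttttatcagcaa

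Mef2b: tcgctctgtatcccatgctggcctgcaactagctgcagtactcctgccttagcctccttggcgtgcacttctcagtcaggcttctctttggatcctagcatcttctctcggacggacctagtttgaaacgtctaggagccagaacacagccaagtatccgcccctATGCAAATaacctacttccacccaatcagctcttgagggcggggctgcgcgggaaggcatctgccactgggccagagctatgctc

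S1pr2: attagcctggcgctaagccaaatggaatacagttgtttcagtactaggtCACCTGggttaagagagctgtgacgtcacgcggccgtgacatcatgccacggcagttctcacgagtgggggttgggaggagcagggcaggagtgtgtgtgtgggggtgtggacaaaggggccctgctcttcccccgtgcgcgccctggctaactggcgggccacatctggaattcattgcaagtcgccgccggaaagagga

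Bcl6: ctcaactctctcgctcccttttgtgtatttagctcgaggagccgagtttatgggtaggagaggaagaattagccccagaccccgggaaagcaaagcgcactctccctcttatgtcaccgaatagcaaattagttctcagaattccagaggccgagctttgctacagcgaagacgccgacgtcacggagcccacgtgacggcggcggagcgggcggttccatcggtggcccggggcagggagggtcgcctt

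The motifs were the octamer ATGCAAAT, the ETS-IRF composite (GGAA, any 2 bases, GAAA), the interferon response letters (GAAA, any 2 bases, GAAA), the MEF2 letters (CTA, any 4 bases, TAG), the E-box CAGGTG and the XBP1 core GACGTG, each read on both strands. The octamer, bound by the OCT factors of B cells, matched in *Mef2b* and in 1.60% of 32851 promoter windows of the same length. The E-box matched in *S1pr2*, *Xbp1* and *Prdm1*, and in 17.2% of all windows. The ETS-IRF composite matched in a further *Bcl6* window at chr16:23981284-23981533 and in 2.30% of windows, the MEF2 letters in *Xbp1* and in 3.20%, the XBP1 core in *Pax5* and in 5.20%, and the interferon response letters in 0 members and in 2.98%. None of the matches overlap. *Rgs13* and *Irf4* matched none of these letters, and a match is a description of the sequence only. Windows were matched for 8 of the 9 members.

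Most members were far more abundant inside the gate than outside it. Among the 9 members, 7 were at least 2-fold higher in gated than in other cells after CpG ODN, where 22.4% of 15794 genes with at least 10 UMIs passed the same rule, and 6 of 9 after LPS, where 22.8% of 14999 genes passed. *Xbp1* and *Prdm1* did not pass in either library, nor did *S1pr2* after LPS. In related lists, 8 of 8 naive B cell genes, 11 of 12 further germinal-centre genes, 14 of 17 B cell transcription factors, 8 of 8 dividing cell genes and 6 of 6 heavy chain genes passed after CpG ODN, but 4 of 13 tested secretory genes, of which a further 3 were at least 2-fold lower. Levels are given as CPM, the UMIs of a gene per 1000000 UMIs summed over the cells, and are compared between cells but not between genes.

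**Figure D1:**
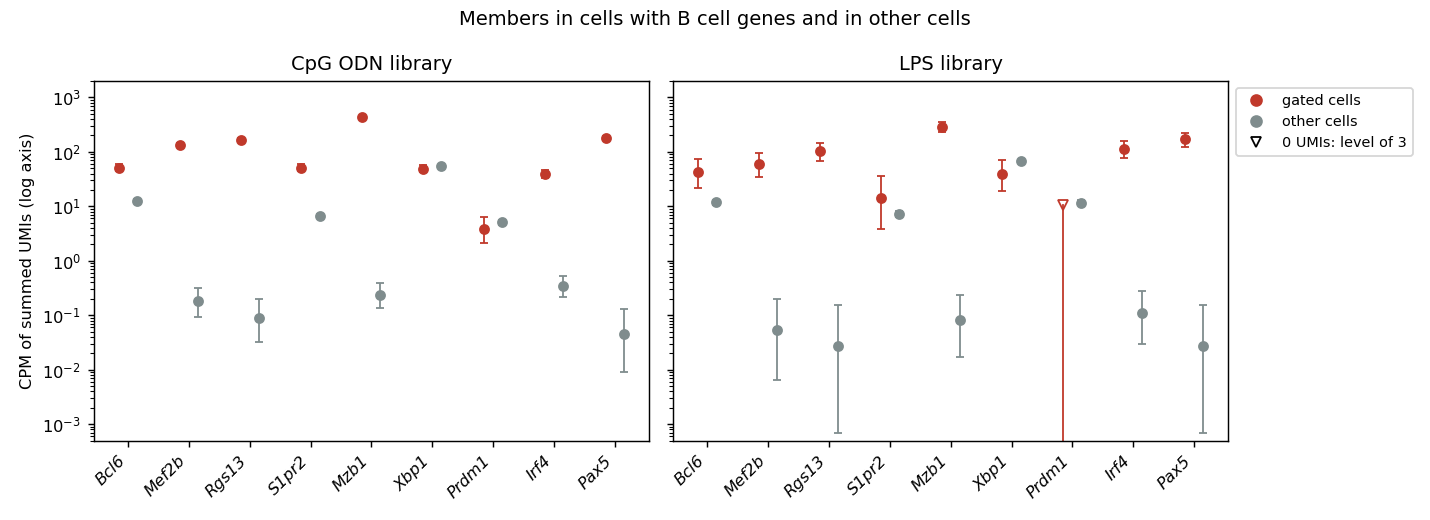
Level of each member in gated (red) and other (grey) cells of each library, as CPM of summed UMIs on a log axis, with 95% counting intervals and an open triangle at the level of 3 UMIs where there were 0. *Mef2b*, *Rgs13*, *Mzb1*, *Irf4* and *Pax5* stand far apart between gated and other cells in both libraries, while *Xbp1* lies at 49.5 and 54.4 CPM after CpG ODN.

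*Pax5* marked the gated cells with the least signal elsewhere. After CpG ODN it had 654 UMIs in 322 of the 563 gated cells (57.2%, 53.0 to 61.3%) and 3 UMIs in the 4325 other cells, 4035-fold apart (1375 to 19617). After LPS it had 48 UMIs in 33 of 72 cells and 1 UMI in the 1205 other cells. The gate genes themselves left similar traces outside the gate, with 45 and 16 UMIs of *Cd79a*, 22 and 6 of *Cd79b*, 13 and 2 of *Ms4a1* and 14 and 0 of *Jchain*. None of the 68 CpG ODN and 19 LPS cells with T cell markers (median 2764 and 5106 UMIs per cell) had a UMI of any member but *Xbp1*, which, at 3 counts for 0, allows up to 4.41% and 15.8% of such cells to have a UMI and sets no limit on how many express the gene.

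*Rgs13*, which dampens signals from chemokine receptors, had 590 UMIs in 184 gated CpG ODN cells and 29 UMIs in 4 gated LPS cells. In the other cells it had 6 UMIs in 6 cells and 1 UMI in 1 cell, which placed it 1820.1-fold (831 to 4980) and 3782-fold (627 to 154482) higher in the gate. *Mef2b*, a transcription factor that acts on *Bcl6*, had 478 UMIs in 180 gated CpG ODN cells and 17 UMIs in 3 gated LPS cells, against 12 and 2 UMIs outside. Its gate ratios were 737-fold (418 to 1437) and 1109-fold (263 to 9893). Nearly all counts of both genes lay in the gate, with 99.0% and 97.6% of their CpG ODN UMIs inside it.

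*S1pr2* and *Bcl6* had signal on both sides of the gate. *S1pr2*, a receptor that keeps B cells within the germinal centre, was found in 115 of 563 gated CpG ODN cells and 3 of 72 gated LPS cells. It had 51.4 CPM (44.3 to 59.4) in gated and 6.72 CPM (6.12 to 7.37) in other cells after CpG ODN, a ratio of 7.65 (6.41 to 9.10). After LPS its 4 UMIs in the gate gave 14.2 CPM (3.86 to 36.2) against 7.16 CPM outside, a ratio of 1.98 (0.535 to 5.12). *Bcl6*, with 186 UMIs in 129 gated CpG ODN cells and 12 UMIs in 8 gated LPS cells, was 4.07-fold (3.46 to 4.78) and 3.61-fold (1.85 to 6.36) higher in gated cells. However, 18.04% of the *Bcl6* UMIs of the CpG ODN cells and 2.69% of those of the LPS cells lay in the gate.

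Among the plasma cell members, *Mzb1* and *Irf4* were concentrated in the gate, and *Xbp1* and *Prdm1* were not. *Mzb1*, an endoplasmic reticulum protein that helps antibody assembly, had 1570 UMIs in 343 gated CpG ODN cells and 81 UMIs in 32 gated LPS cells, against 16 and 3 UMIs outside, and was 1816-fold (1115 to 3186) and 3522-fold (1163 to 17432) higher in the gate. *Irf4* had 140 UMIs in 99 gated CpG ODN cells and 32 UMIs in 18 gated LPS cells, against 23 and 4 UMIs outside. It was 113-fold (72.2 to 184) and 1043-fold (370.0 to 4061) higher in gated cells. *Xbp1* stood at 49.5 CPM (42.5 to 57.3) in gated and 54.4 CPM (52.6 to 56.2) in other CpG ODN cells, and at 38.9 CPM (19.4 to 69.6) and 69.4 CPM (66.7 to 72.1) in LPS cells. The ratios were 0.910 (0.779 to 1.06) and 0.561 (0.280 to 1.005). *Prdm1* had 14 UMIs in 7 of the 563 gated CpG ODN cells (1.24%, 0.501 to 2.55%), at 3.87 CPM against 5.09 CPM outside the gate, and 0 UMIs in the 72 gated LPS cells, which allows up to 10.6 CPM.

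Gated cells were next divided by their heavy chain, because class switching is a step taken by activated B cells. A cell with more *Ighm* and *Ighd* than other constant region UMIs was called an IgM or IgD cell, and a cell with more of the others was called switched, a division chosen after the data were seen. After CpG ODN there were 336 IgM or IgD cells, 209 switched cells and 18 cells with neither in excess, and after LPS 68, 3 and 1. Of the constant region UMIs of the 209 switched CpG ODN cells, *Ighg2b* had 3148 and *Ighg2c* 56, beside 73 of *Ighm* and 12 of *Ighd*. The switched cells had a median of 6251 UMIs and the IgM or IgD cells 2267. The dividing cell genes *Mki67* or *Top2a* were detected in 65.6% of the switched and 10.7% of the IgM or IgD cells. Keratin exceeded 1% of UMIs in 11 of the switched and 33 of the IgM or IgD cells. The part of depth and of cell division in the differences between these classes was not tested.

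The germinal-centre members and *Mzb1* were higher in the switched cells of the CpG ODN library, and *Irf4* was lower. Of the 8 members with at least 10 UMIs, 5 were at least 2-fold higher, as were 13.2% of 10398 genes, and 1 was at least 2-fold lower, as were 15% of genes. *Mef2b* rose from 29.8 CPM (21.5 to 40.3) in IgM or IgD cells to 205 CPM (186 to 226) in switched cells, a ratio of 6.88 (5.003 to 9.69). *Rgs13* went from 49.0 to 246 CPM (5.03-fold, 3.90 to 6.56) and *S1pr2* from 17.8 to 77.5 CPM (4.36-fold, 2.85 to 6.94). *Mzb1* stood at 222 and 592 CPM (2.67-fold, 2.36 to 3.03) and *Bcl6* at 31.3 and 67.8 CPM (2.17-fold, 1.54 to 3.12). Without the cells over 1% keratin the ratios were 4.60, 3.67, 3.50, 1.87 and 1.77 in the same order, so *Mzb1* and *Bcl6* then fell short of 2-fold.

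*Irf4* ran the other way, at 60.4 CPM (48.2 to 74.7) in IgM or IgD cells and 24.7 CPM (18.4 to 32.5) in switched cells, 2.45-fold lower in the latter and 3.02-fold lower without the cells over 1% keratin. *Pax5* was level between the classes, at 179 and 190 CPM (ratio 1.06, 0.903 to 1.25), or 0.779 times (0.659 to 0.922) without the cells over 1% keratin. *Xbp1* was at 44.1 and 54.7 CPM (ratio 1.24, 0.903 to 1.72). *Prdm1* had 9 UMIs in 5 switched cells and 0 in the 336 IgM or IgD cells, which allows up to 2.13 CPM there. It stood at 4.36 CPM (1.99 to 8.27) in the switched cells, on fewer than the 10 UMIs required for a ratio.

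**Figure D2:**
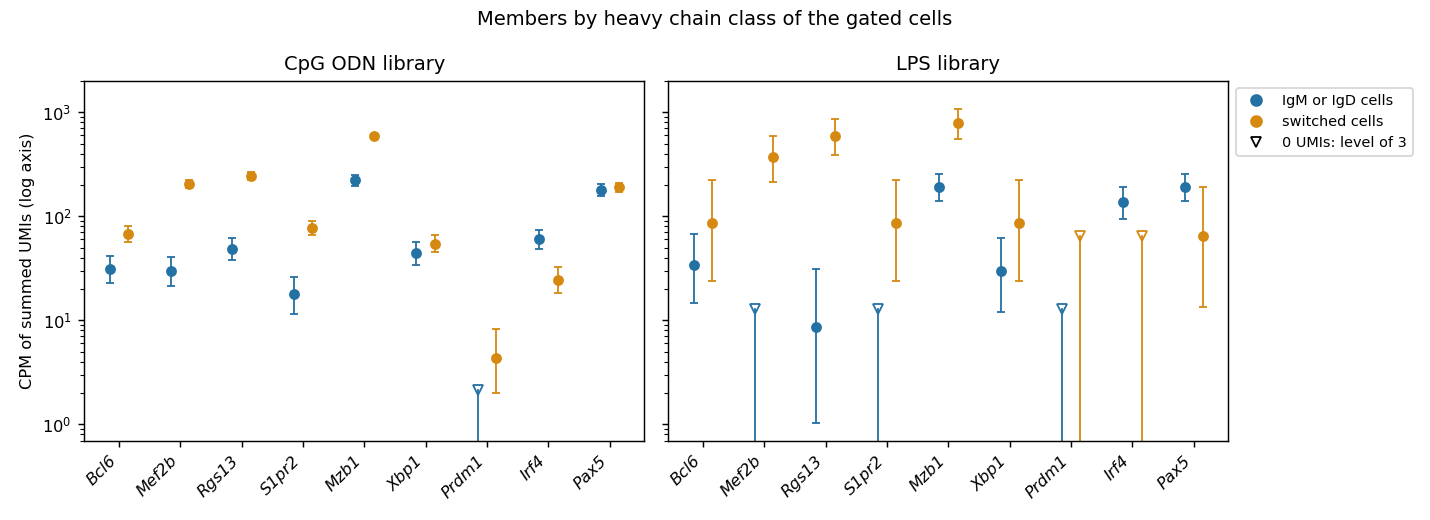
Level of each member in IgM or IgD cells (blue) and switched cells (orange) of the gate, as CPM on a log axis with 95% counting intervals, for each library, with an open triangle at the level of 3 UMIs where there were 0. *Mef2b*, *Rgs13* and *S1pr2* are higher in switched cells in the CpG ODN panel, *Irf4* is lower, and the LPS panel rests on 3 switched cells.

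Lists of other genes of the same programmes were read in the same classes. These lists were chosen with earlier results of these data known, so they are a description and no independent support. Of 12 further germinal-centre genes, 8 were at least 2-fold higher in switched cells and 1 lower, with a median ratio of 4.65 against 1.05 over all 10398 genes. *Basp1* reached 741 CPM in switched and 63.2 CPM in IgM or IgD cells, and *Ezh2*, a histone methyltransferase of dividing B cells, 221 and 45.5 CPM. *Cxcr4*, the receptor of the germinal-centre dark zone, stood at 121 and 149 CPM, and *Cd83* was lower, at 77.0 and 212 CPM. Of 8 naive B cell genes, 7 were at least 2-fold lower in switched cells and 0 higher, with a median ratio of 0.0354. They included *Klf2* (30.0 and 452 CPM), *Ighd* (5.81 and 314 CPM) and *Fcer2a* (42.1 and 146 CPM), while *Cr2* stood at 92.0 and 86.7 CPM.

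The heavy chain genes set the classes themselves, and *Ighd* is one of them as well as a naive B cell gene. Of 6 tested heavy chain genes, 4 were higher and 2 lower in switched cells. The secretory genes gave no common direction, with 3 of 12 tested genes higher in switched cells and 3 lower, at a median ratio of 1.34. *Herpud1*, a gene of endoplasmic reticulum protein degradation, stood at 215 and 61.8 CPM, *Sec11c* of the signal peptidase at 212.5 and 112 CPM, the chaperone *Hspa5* at 299.7 and 329 CPM, and *Ssr4* at 203 and 219 CPM. Of 17 B cell transcription factors, 1 was higher and 2 lower (median ratio 1.39). *Foxp1* was lower, at 143 against 481 CPM, and *Mef2c* (853 and 992.5 CPM), *Ebf1* (632 and 820.5 CPM) and *Irf8* (318.5 and 208 CPM) lay within 2-fold. All 8 dividing cell genes were higher, with a median ratio of 6.23. *Hmgb2* was 5.45-fold, *Stmn1* 5.63-fold, *Mki67* 7.58-fold and *Top2a* 8.35-fold higher.

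Within the switched cells, the members were also compared between cells with and without a UMI of *Mki67* or *Top2a*. The 137 switched cells with *Mki67* or *Top2a* had a median of 7966 UMIs and the other 72 had 4437.5. *Rgs13* stood at 248 and 240.0 CPM (ratio 1.03, 0.830 to 1.30), *Mef2b* at 211.5 and 181 CPM (ratio 1.17, 0.910 to 1.52) and *Mzb1* at 585 and 616 CPM (ratio 0.949, 0.827 to 1.09). *Irf4* had 47 and 4 UMIs and was 3.04-fold (1.11 to 11.6) higher in the dividing cells, and *Xbp1* had 101 and 12 UMIs and was 2.18-fold (1.195 to 4.36) higher. Of the *Xbp1* UMIs of the dividing cells, 23 came from 1 cell and 14 from another. The ratios of *Bcl6* (1.25, 0.802 to 2.03), *S1pr2* (0.705, 0.493 to 1.025) and *Pax5* (0.908, 0.714 to 1.17) had intervals that included 1, and *Prdm1* had 8 and 1 UMIs. This division rests on detection in cells of unlike depth, and the part of cell division was not tested.

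The co-detection of members within single cells was read after thinning every cell to 1500 UMIs, since deeper cells show more genes of every kind. Among all 563 gated CpG ODN cells, *Mef2b* was found in 72.8% of the cells with *Rgs13* and in 12.1% of those without it, and after thinning it was expected in 31.6% and 10.4%, an odds ratio of 3.95. The 6 pairs among the 4 germinal-centre members had odds ratios between 1.55 and 3.95 (median 2.44), and those of these members with *Mzb1* between 1.44 and 3.35 (median 2.77). *Jchain*, a gate gene, was expected in 53.0% of cells with *Rgs13* and 17.2% of cells without it. *Irf4* had odds ratios between 0.246 and 0.481 with the 4 germinal-centre members after thinning, but between 0.774 and 1.02 as detected. The lower odds ratios are thus seen only after thinning. Its CPM, which uses no thinning, was 66.8 in the 288 gated cells with 0 of these members and between 21.0 and 31.9 in the other cells, grouped by number of members. *Xbp1* had thinned odds ratios between 0.843 and 1.03. *Pax5* had values between 0.924 and 1.13 with 3 of the 4, and 1.90 with *Bcl6*, above those of *Bcl6* with *Mef2b* (1.78) and *Rgs13* (1.54).

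The pair values were closer to 1 within the switched cells alone. Within the 209 switched cells the 6 germinal-centre pairs had odds ratios between 1.03 and 1.40, and the 4 pairs with *Irf4* between 0.569 and 1.09. Within the 336 IgM or IgD cells the same sets of pairs lay between 1.40 and 32.9 and between 0.153 and 0.773. In this class, divided by *Rgs13* after the data were seen, 24 cells had the gene, of which 16 had *Mef2b*, 14 *S1pr2*, 22 *Mzb1*, 20 *Basp1* and 22 *Jchain*. Among the 312 IgM or IgD cells without *Rgs13*, the same genes were found in 7, 4, 112, 8 and 2 cells. The 24 cells had a median of 5309.5 UMIs against 2197, 79.2% had *Mki67* or *Top2a* against 5.45%, and *Ighd* was at 61.6 against 347 CPM. *Irf4* stood at 24.7 CPM in these 24 cells and 65.04 CPM in the others. The 153 switched cells with *Rgs13* (median 6517 UMIs) had levels near those of the 24, with *Mef2b* at 221 and 216 CPM, *Jchain* at 687 and 604 CPM and *Mzb1* at 632 and 789 CPM. The part of depth in these contrasts was not tested.

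**Figure D3:**
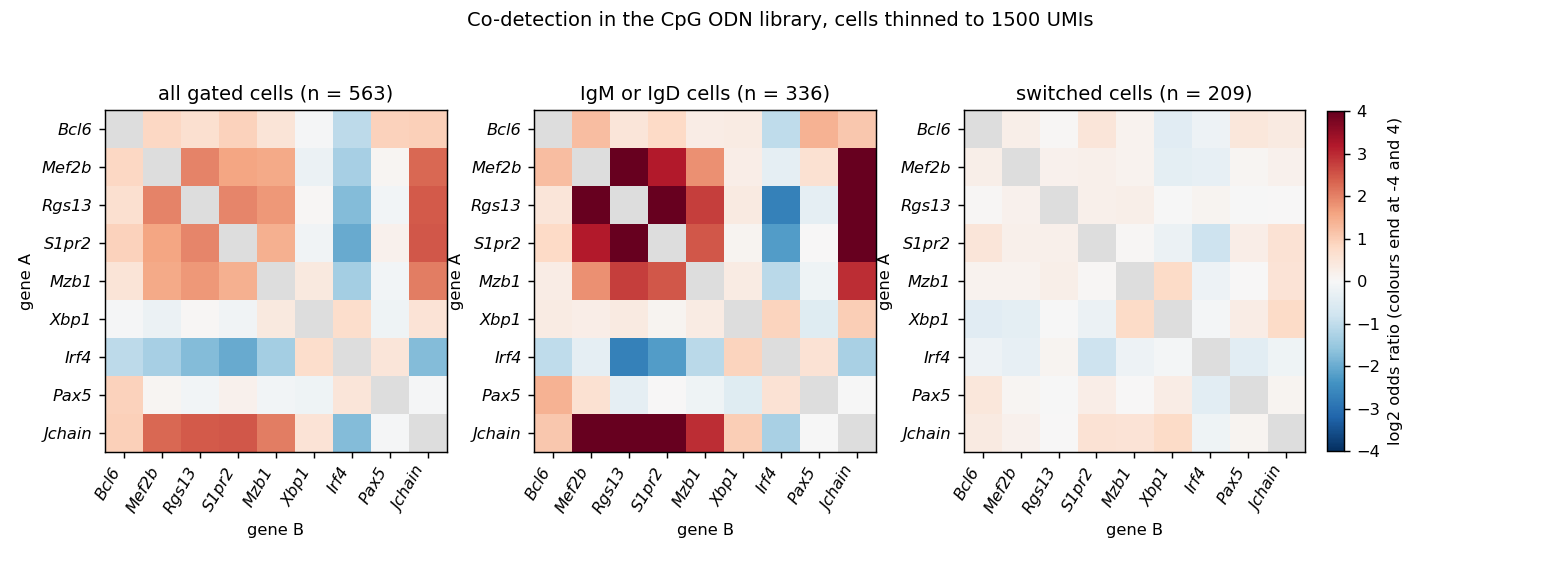
Log2 odds ratio of detecting gene A and gene B in the same cell of the CpG ODN library, expected after thinning each cell to 1500 UMIs, in all 563 gated cells, the 336 IgM or IgD cells and the 209 switched cells (red, together more often; blue, less often; *Prdm1*, in 7 cells, is left out). *Rgs13*, *Mef2b*, *S1pr2*, *Mzb1* and *Jchain* form a red block in the first pair of panels, where *Irf4* is blue beside them, and the panel of switched cells is pale.

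Cells with a UMI of at least 1 germinal-centre member and of at least 1 plasma cell member made up 247 of the 563 gated CpG ODN cells, 43.9% (39.7 to 48.1%), and 7 of the 72 LPS cells, 9.72% (4.00 to 19.0%). In the other cells, which were deeper, the shares were 12.6% and 25.3%, the latter above that of the LPS gate. Expected shares after thinning were 20.05% and 4.83% in the gate and 0.329% and 0.383% in the other cells. *Mzb1* supplied most of this overlap, and without it 100 of the 563 CpG ODN cells (17.8%) and 3 of the 72 LPS cells (4.17%) had both kinds, against 12.5% and 25.2% of the other cells. *Mzb1* was also found in 39.9% and *Irf4* in 19.05% of the IgM or IgD CpG ODN cells. The shares count detected genes and do not show the fate of a cell. The share with both kinds was 193 of 209 switched cells (92.3%) and 45 of 336 IgM or IgD cells (13.4%) after CpG ODN, and 41.5% and 6.325% after thinning. Counted by number, 38 gated CpG ODN cells had all 4 germinal-centre members, 66 had 3, 87 had 2, 84 had 1 and 288 had 0. *Irf4* was at 66.8 CPM in the 288 cells with 0 of them and between 21.0 and 31.9 CPM in the other sets. *Pax5* lay between 158 and 232 CPM with no order. *Jchain* went from 11.3 CPM in the 288 cells to between 411 and 774 CPM, the highest in the set with 1 member, in which 1 cell had 249 of its UMIs. The median depth rose from 2248 UMIs in the 288 cells to 12685.5 in the 38.

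Cells rich in immunoglobulin RNA were rare. Immunoglobulin genes and *Jchain* held over 10% of the UMIs in 1 gated CpG ODN cell and 0 gated LPS cells. That cell, with 10645 UMIs and 25.2% immunoglobulin, had 249 UMIs of *Jchain*, 715 of *Ighg2b*, 50 of *Mzb1*, 14 of *Xbp1*, 2 of *Prdm1* and 1 of *Irf4*, and it still had 2 UMIs of *Pax5* and 3 of *Rgs13*. Of the 7 gated cells with *Prdm1*, 5 were switched cells, and each of these had *Rgs13*, *Mzb1* and *Jchain*. The other 2 had 11.2% and 8.43% keratin, 0 UMIs of *Mzb1* and *Rgs13*, and 3 and 21 UMIs of *Sdc1*, which encodes a proteoglycan of plasma cells and epithelium. The switched cell with the most *Prdm1* (4 UMIs) had 9 UMIs of *Mef2b*, 15 of *Rgs13*, 41 of *Mzb1* and 23 of *Xbp1*.

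Over the 563 gated CpG ODN cells, the gene most like *Rgs13* was *Basp1* (Pearson r = 0.685 on log-scaled UMIs, of 7541 genes found in at least 5% of the cells), followed by *Jchain* (0.614) and *Ighg2b* (0.570). *Basp1* also led for *Mef2b* (0.665), ahead of *Jchain* (0.586) and *Hmgb2* (0.580). *Jchain* led for *S1pr2* (0.486), with *Basp1* (0.474), and for *Mzb1* (0.576), with *Basp1* (0.569) and *Ighg2b* (0.520). For *Irf4* the only gene with r of at least 0.3 was *Nfkbid* (0.386), which encodes an NF-kB inhibitor of the nucleus. *Bcl6*, *Xbp1* and *Pax5* had none, and *Prdm1* was in too few cells to be compared. These cells share a library and differ in depth, and the values are descriptions.

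Between the libraries, *Mef2b* and *S1pr2* were at least 2-fold higher in gated cells after CpG ODN and *Irf4* at least 2-fold lower. That is 2 of 9 members beside 14.6% of 10647 genes higher, and 1 of 9 beside 9.84% lower, with a median ratio of 1.07 over these genes. With 9 members such counts are near the shares over all genes and are no result about the members as a set. *Mef2b* stood at 132 and 60.1 CPM, a CpG ODN/LPS ratio of 2.20 (1.36 to 3.81). *S1pr2* stood at 51.4 and 14.2 CPM (ratio 3.64, 1.40 to 13.5, on 4 LPS UMIs). *Irf4* stood at 38.7 and 113 CPM, 2.92-fold lower after CpG ODN (ratio 0.342, 0.232 to 0.519). Of the gate genes, *Cd79a* was also lower (ratio 0.425, 0.394 to 0.458), *Cd79b* was at 0.706, *Ms4a1* at 0.933 and *Jchain* at 2.32. *Rgs13* (ratio 1.59, 1.10 to 2.396), *Mzb1* (1.52, 1.21 to 1.92), *Bcl6* (1.21, 0.677 to 2.39), *Xbp1* (1.27, 0.694 to 2.59) and *Pax5* (1.07, 0.794 to 1.46) lay within 2-fold. Without the 50 CpG ODN cells over 1% keratin, *Rgs13* (2.15, 1.48 to 3.24) and *Mzb1* (2.06, 1.65 to 2.61) passed as well. Both also passed as a mean over cells (4.01 and 2.08). *Mef2b* fell short of 2-fold in cells with at least 1200 genes (1.58) or at least 200 genes (1.91) and was at 5.02 without its top cell in each library, and *Irf4* fell short as a mean over cells (0.533). *Prdm1*, with 14 and 0 UMIs, gave no bound.

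The LPS values of the germinal-centre members came from a few cells. The 3 switched LPS cells, with 22958, 11026 and 11905 UMIs, held 27 of the 29 *Rgs13* UMIs of the LPS gate, all 17 of *Mef2b*, all 4 of *S1pr2* and all 46 of *Jchain*. *Rgs13* had 10, 13 and 4 UMIs in them, *Mef2b* 4, 3 and 10, and *S1pr2* 2, 1 and 1, and *Mki67* had 14, 33 and 19. Thus 3 LPS cells had at least 2 of the 4 members, 4.17% of the gate, against 191 cells or 33.9% after CpG ODN, and switched cells were 4.17% and 37.1% of the gated cells.

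The libraries were then compared within each heavy chain class. Among IgM or IgD cells, *Irf4* stayed lower after CpG ODN, at 60.4 against 137 CPM (ratio 0.441, 0.291 to 0.685), and *Pax5* (0.930) and *Mzb1* (1.15) lay within 2-fold. The gate genes *Cd79a* (0.4905, 0.451 to 0.533), *Cd79b* (0.633) and *Ms4a1* (0.778) were lower in this class too, while *Jchain* had 101 and 0 UMIs. Keratin exceeded 1% of UMIs in 33 of the CpG ODN and 0 of the LPS cells of this class, and its part was not tested. *Rgs13* had 69 and 2 UMIs in the IgM or IgD cells (ratio 5.73, 1.53 to 48.3). *Mef2b* had 42 and 0, a ratio of 2.33 with the 0 set to 3 UMIs over the class and a lower 95% limit of 1.81. *S1pr2* had 25 and 0, which gave 1.38 in the same way (lower limit 1.045) and did not reach 2-fold. *Bcl6* was at 0.914 (0.426 to 2.25). Among switched cells the ratios were 0.554 (0.342 to 0.960) for *Mef2b*, 0.419 (0.284 to 0.642) for *Rgs13*, 0.889 (0.340 to 3.30) for *S1pr2*, 0.778 (0.297 to 2.89) for *Bcl6* and 0.754 (0.542 to 1.08) for *Mzb1*, on 209 cells against 3. The higher *Mef2b* and *S1pr2* of the whole CpG ODN gate were not seen in the switched cells themselves. For *S1pr2* the 3 LPS cells cannot decide this, since its interval reaches past 2. *Pax5* had a ratio of 2.90 there (0.986 to 14.1), on 3 LPS UMIs. *Irf4* had 51 and 0 UMIs in switched cells, which gave no bound, since 3 UMIs equal 65.4 CPM in the 3 LPS cells. Ligand, pool of mice and library cannot be told apart.

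**Figure D4:**
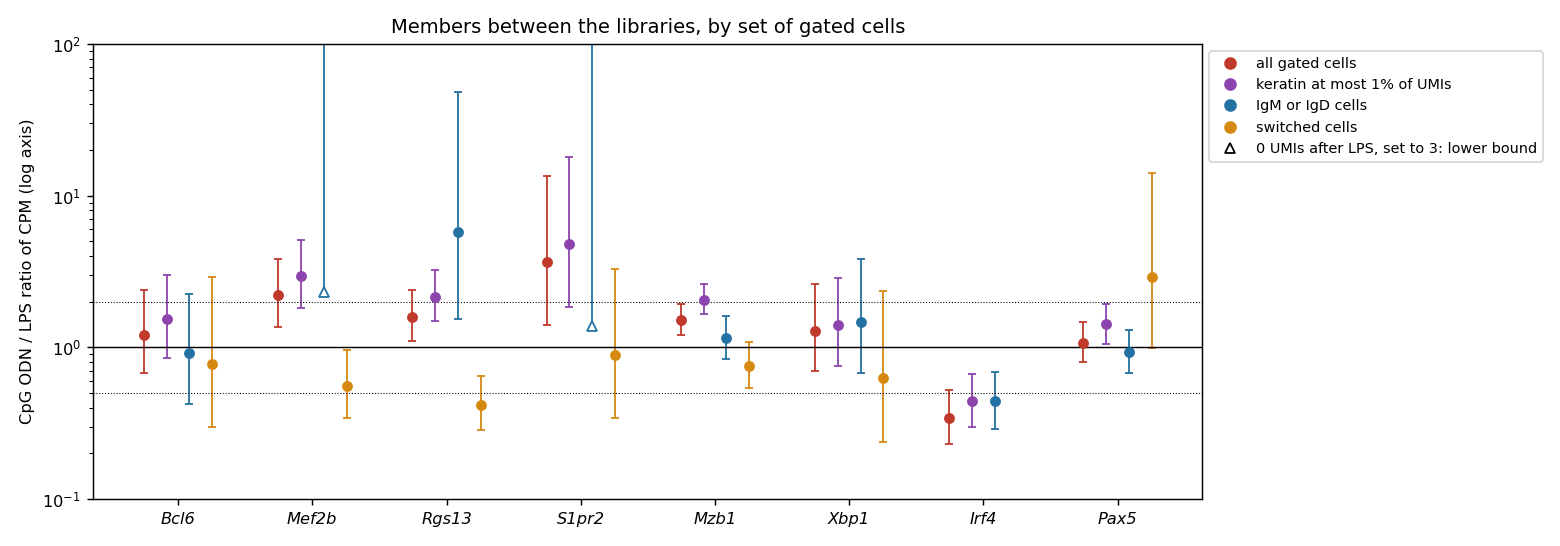
CpG ODN/LPS ratio of CPM for each member (log axis, 95% counting intervals; solid line at 1, dotted lines at 2-fold) in all gated cells, in those with at most 1% keratin, in IgM or IgD cells and in switched cells (open triangle, lower bound with 0 LPS UMIs set to 3; pairs with no such bound are left out). *Irf4* lies below 1 in each set plotted, and the points of *Mef2b*, *Rgs13* and *S1pr2* lie below 1 in the switched cells. That set has 3 LPS cells, and its *S1pr2* interval crosses 1.

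The naive B cell list also separated the gates, with 7 of 8 genes at least 2-fold lower after CpG ODN and 0 higher (median ratio 0.219). *Klf2* stood at 195 and 941 CPM and *Ighd* at 125.5 and 523.5 CPM. Of the 12 germinal-centre genes, 4 were higher and 3 lower (median ratio 1.87), with *Basp1* at 461 and 138 CPM. In the 3 switched LPS cells *Basp1* had 39 UMIs, all of its UMIs in the LPS gate. For the secretory list 3 of 12 were higher and 1 lower (median 1.24), for the transcription factors 0 of 17 and 2 (median 0.765), for the dividing cell genes 2 of 8 and 0 (median 1.72), and for the heavy chains 1 of 6 and 3 (median 0.281).

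Outside the gate, members with signal were assigned to cells by marker lists, with cuts that were set after the data were seen. *Xbp1* was highest in cells with gland and simple epithelial markers, at 377.5 CPM (320 to 442) in 21 CpG ODN cells and 624 CPM (572 to 680) in 34 LPS cells. Of the 526 *Xbp1* UMIs of these LPS cells, 149 were in 1 cell. *Xbp1* was at 196.5 and 173 CPM in endothelial, 148.5 and 108 CPM in fibroblast, 99.7 and 308 CPM in myeloid and 50.4 and 51.6 CPM in epithelial cells. Single cells held 13 of the 43 and 10 of the 32 endothelial UMIs of *Xbp1*, and 9 of the 31 in LPS myeloid cells. *S1pr2* was highest in fibroblasts, at 35.3 CPM (24.5 to 49.3) and 39.6 CPM (23.5 to 62.6), against 6.21 and 7.01 CPM in epithelial cells. Outside the gate *Irf4* was mainly a myeloid signal, with 13 of its 23 CpG ODN UMIs in 35 myeloid cells (76.2 CPM, 40.6 to 130.4) and 3 of its 4 LPS UMIs in 16 (29.8 CPM, 6.14 to 87.0).

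*Bcl6* was at 35.2 and 69.5 CPM (6 and 7 UMIs, with 4 of the 7 in 1 cell) in myeloid, 18.7 and 24.2 CPM in fibroblast and 12.3 and 10.3 CPM in epithelial cells. *Prdm1* was at 23.5 and 69.5 CPM (4 and 7 UMIs) in myeloid, 27.4 and 27.1 CPM (6 UMIs, of which 5 were in 1 cell, and 5 UMIs) in endothelial and 4.70 and 10.1 CPM in epithelial cells. The lists left 150 CpG ODN and 60 LPS cells outside every class and 78 and 41 in over 1, which were not used. Many cells lay near a cut, with scores between 0.5 and 2 times it in 225 and 79 cells for fibroblasts beside 237 and 55 in the class.

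**Figure D5:**
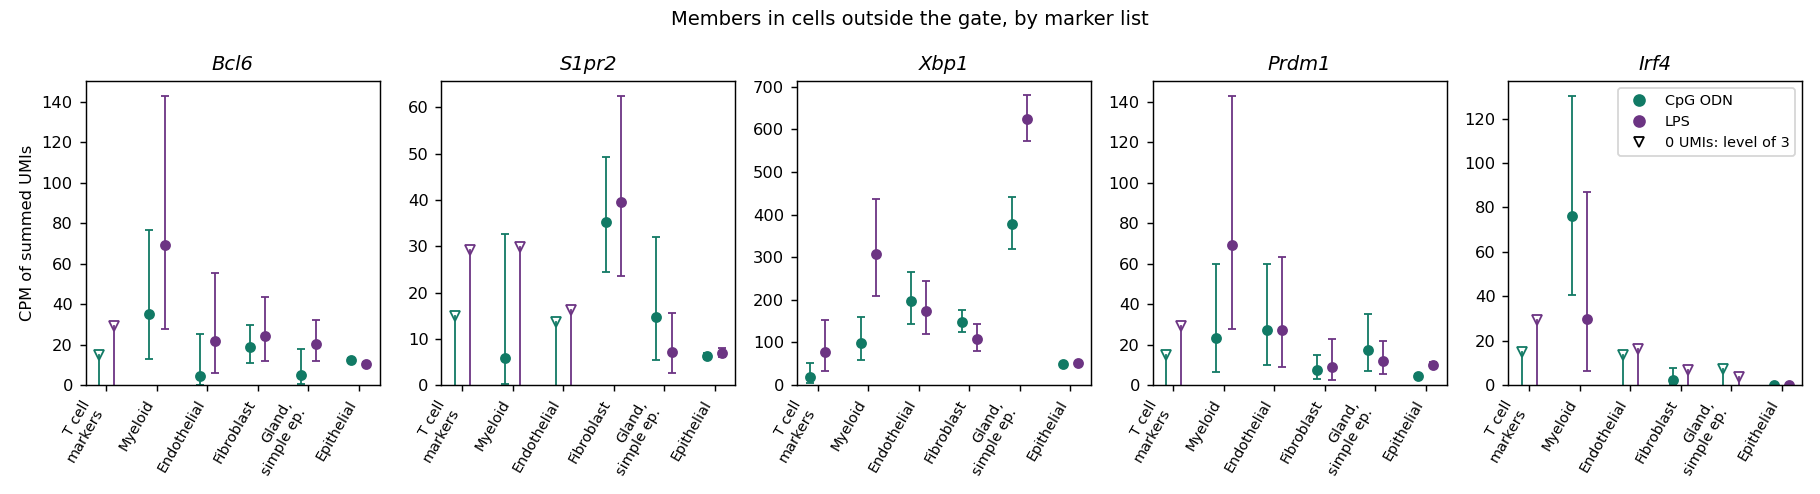
Level of 5 members in cells outside the gate, grouped by marker list, as CPM with 95% counting intervals (green, CpG ODN; purple, LPS; open triangle, 0 UMIs drawn at the level of 3). *Xbp1* peaks in gland and simple epithelial cells, *S1pr2* in fibroblasts, and *Irf4* in myeloid cells.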

How the data were processed

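Per the file headers, the authors aligned and counted the reads with Cell Ranger (version 4.0.0) and deposited raw UMI counts per gene and barcode, without normalization, for 2 libraries of 4 pooled mice each. The genome build of that step is not given in the sources used here, and gene coordinates are from GENCODE (GRCm38). Totals were 72173148 and 38656738 UMIs. Barcodes needed 800 or more detected genes, the minimum the study used, and doublets were not called. Members were compared as CPM of summed UMIs with exact Poisson intervals, ratios with exact conditional binomial intervals, and shares with exact Clopper-Pearson intervals (95%). A difference was called at 2-fold among genes with at least 10 UMIs, and 0 UMIs were set to 3. Odds ratios and thinned shares are expectations over cells thinned to 1500 UMIs, and the code was tested on simulated data. Named genes are the members, the gate genes, the 4 genes of each list with the most gated UMIs, and up to 3 genes per member with r of at least 0.3. Some genes that these rules name are not reported here. *Sdc1*, named beside the cells with *Prdm1*, and all classes of cells within or outside the gate were chosen after their values were seen. The members and lists were chosen with earlier results of these data known. Alternatives tried were stricter and looser gates and gene minimums, other scalings, thinning, and leaving out keratin-rich cells or the cell with the most UMIs. Python 3.11.15, numpy 2.4.6, scipy 1.17.1, pandas 2.3.3 and matplotlib 3.10.9 were used.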

Additional observations from a re-analysis of the deposited data

Results flagged for a closer look

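Signal of the members was also present in barcodes that the comparisons left out, those that passed the B cell gate with at least 200 but under 800 detected genes. There were 504 such barcodes (median 1556.5 UMIs) in the CpG ODN library, close in number to the 563 gated cells, and 6 in the LPS library. In the 504 barcodes *Mzb1* had 217 UMIs (281 CPM), *Pax5* 194 (251.5 CPM), *Irf4* 64 (83.0 CPM), *Bcl6* 24, *Xbp1* 24, *Mef2b* 14 (18.2 CPM) and *Rgs13* 8 (10.4 CPM), and *S1pr2* and *Prdm1* had 2 each. The 6 LPS barcodes had 1 UMI of *Irf4* and 0 of the other members. *Mki67* or *Top2a* was found in 3.37% of the 504 barcodes. Immunoglobulin held over 10% of the UMIs in 2 of them, up to 40.0%.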

How the results depend on the processing

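No paired analysis was possible because a single library stands for either ligand. Of 35 recomputed counts and shares, 31 stayed within 1.5 times the main count or within the counting interval of the main share. Without the cells over 1% keratin, 5 members rather than 3 were at least 2-fold apart between the libraries. The share of gated CpG ODN cells with both kinds of member was 78.1% in cells with at least 1200 genes, 24.55% with at least 200 genes and 20.05% after thinning to 1500 UMIs, beside 43.9%. Of 79 recomputed CPM ratios of single members, 63 stayed within the counting interval of the main ratio, 14 left it and, of those at least 2-fold apart, 2 changed direction, *Mef2b* (0.554) and *S1pr2* (0.889) in switched cells alone. In the same cells *Rgs13* (0.419), *Xbp1* (0.628), *Mzb1* (0.754) and *Bcl6* (0.778), which were within 2-fold in the whole gate, also went from above 1 to below it. These values rest on 3 switched LPS cells. The intervals of *S1pr2* (0.340 to 3.30), *Xbp1*, *Mzb1* and *Bcl6* included 1, and those of *Mef2b* and *Rgs13* did not. *Mef2b* was under 2-fold with at least 1200 genes (1.58) or at least 200 genes (1.91), and at 6.21 as a mean over cells. By that mean *S1pr2* was at 12.3, *Rgs13* at 4.01 and *Mzb1* at 2.08, so 4 members were at least 2-fold apart between the libraries. *S1pr2*, 1.98-fold higher in the LPS gate, passed 2-fold with at least 1200 genes and without immunoglobulin UMIs. *Irf4* stayed under 1 in each alternative run, at 0.533 as a mean over cells, which is short of 2-fold. With the cell holding the most UMIs of the gene left out of each library, the ratio was 5.02 for *Mef2b* and 2.70 for *Rgs13*. Depth limits *Prdm1* and *S1pr2* after LPS, where the gate holds 282702 UMIs and 3 UMIs equal 10.6 CPM.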

Other observations

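*Prdm1*, known in epithelium for its part in terminal differentiation, differed between epithelial cells by their keratins. Epithelial cells with more UMIs of *Krt10*, a keratin of the upper layers, than of *Krt5* and *Krt14* of the basal layer had 11.8 CPM of *Prdm1* (9.62 to 14.4) in 263 CpG ODN cells, against 3.61 CPM (3.13 to 4.15) in the other 3424, a ratio of 3.28 (2.55 to 4.19). After LPS the levels were 24.7 CPM (20.7 to 29.2) in 90 cells and 7.20 CPM (6.24 to 8.27) in 865, a ratio of 3.43 (2.74 to 4.28). *Xbp1* differed less, by 1.52-fold (1.38 to 1.66) and 1.40-fold (1.25 to 1.57) in the same direction. *Bcl6* was lower in the cells with more *Krt10*, with ratios of 0.319 (0.222 to 0.446) and 0.491 (0.328 to 0.712), and *S1pr2* was at 1.02 (0.752 to 1.37) and 1.49 (1.08 to 2.03). This division of the cells was chosen after the data were seen and has no replicate.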
